A study of Mus musculus with 6 samples.

Results

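The type I interferon-stimulated genes examined here are 38 genes that were matched by symbol in a count table of naive CD4+ T cells of mice at 2 ages. All 38 symbols were found among the 52997 genes of the table. The oligoadenylate synthetase genes were left out of the set. RNA was sequenced from lymph node cells of infant mice aged 10 days and of adult mice aged 7 weeks, with 3 mice in each group and 1 library per mouse. All mice were of the Foxp3-GFP strain on the C57BL/6 background, in which a green fluorescent protein reports expression of Foxp3, the transcription factor of regulatory T cells. The labels name no treatment for either group. Each library came from 1000 cells of pooled lymph nodes that were sorted in succession, and the library titles call the cells Tconv. Which markers set the sort gate was not known here.

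Type I interferons bind a receptor of the chains Ifnar1 and Ifnar2, which activates the kinases Jak1 and Tyk2. Stat2 then joins Irf9 in a complex that binds interferon-stimulated response elements in the promoters of many antiviral genes. Naive T cells hold some of these transcripts without infection, a state often called tonic interferon signalling. The genes are grouped below by what their proteins do: signalling and feedback, conjugation of the ubiquitin-like protein ISG15, binding or sensing of RNA, antiviral effectors, ADP-ribosylation, the p200 family, and a remaining group.

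The libraries held 3421253 to 4887371 counts, with no difference in depth between the ages found (p = 0.9 in a two-sided exact permutation test, where 0.1 is the smallest value possible for 3 against 3 mice). Adult replicate 2 stood apart: 36373 genes were detected in it, and 17992 to 21840 in each other library. Autosomal protein-coding genes outside the test had a density of 1.85 counts per kb in it, against 0.186 to 0.349 elsewhere. T cell marker genes had summed levels of 6455 to 6825 CPM (counts scaled to library size) in infant and 6152 to 7039 CPM in adult libraries for 7 genes, 0 of which passed the test below. Markers of B cells summed to 5.56 to 9.18 CPM in infant and 8.0 to 17.0 CPM in adult libraries. Siglech, a gene of plasmacytoid dendritic cells, was at 0 in all libraries but adult replicate 2. The 6 markers of that cell type summed to 109 to 139.8 CPM in infant and 85.5 to 127 CPM in adult libraries, and 1 of them, Ccr9, was higher in infant cells. Bst2, itself one of the 38 genes, made up 59.0 to 88.5 CPM of these sums in infant and 60.2 to 83.8 CPM in adult libraries. Ccr9 made up 41.5 to 50.9 CPM in infant and 13.9 to 20.8 CPM in adult libraries. Tcf4 went the other way, at 2.18 to 7.73 CPM in infant and 3.64 to 19.0 CPM in adult libraries. It did not pass (edgeR adjusted p = 0.282), and Siglech, Ly6d and Runx2 were too low to test. The part of plasmacytoid dendritic cells in the results below was not tested. In RNA of sorted cells in bulk, fewer cells that express a gene and less RNA per cell cannot be told apart.

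Infant cells held less RNA of a minority of the interferon-stimulated genes. With the threshold at an adjusted p of 0.05 (edgeR, quasi-likelihood test, adjusted by Benjamini-Hochberg over 11681 tested genes), 5 of 38 were lower in infant cells (13.2%), 0 were higher and 33 did not pass. Over all tested genes 2.11% were lower and 1.52% higher by the same rule, 3.64% in all. The 5 were Ifi44, AW112010, Ifi27l2a, Ifi213 and Ifi209. Ifi44 passed the filter on low counts only through the adult libraries, where it is high. Of the other 37 genes, 4 were lower (10.8%). Among the 31 genes that share under 20% of their 25-base sequences with other genes, 3 were lower (9.68%), Ifi44 included. The 3 infant values lay wholly below the 3 adult values at 13 of 38 genes (34.2%), against 11.6% of all tested genes. Without Ifi44 this held at 12 of 37 (32.4%). Infant values lay wholly above adult values at 1 gene, Lgals3bp, against 11.2% of all tested genes. The fitted fold change was below 0 at 30 of 38 and, without Ifi44, at 29 of 37, against 50.3% of all tested genes. The median log2 fold change, infant over adult, was −0.28 over the 38 genes and also over the 37, and −0.00 over all tested genes. The count of 5 was 2 without infant replicate 1 or 3 (Ifi44 and AW112010) and 3 without adult replicate 1 (Ifi44, Ifi27l2a and AW112010). Calls over all tested genes were 176 without infant replicate 1, 189 without infant replicate 3 and 185 without adult replicate 1, against 425 with all libraries.

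**Figure D1:**
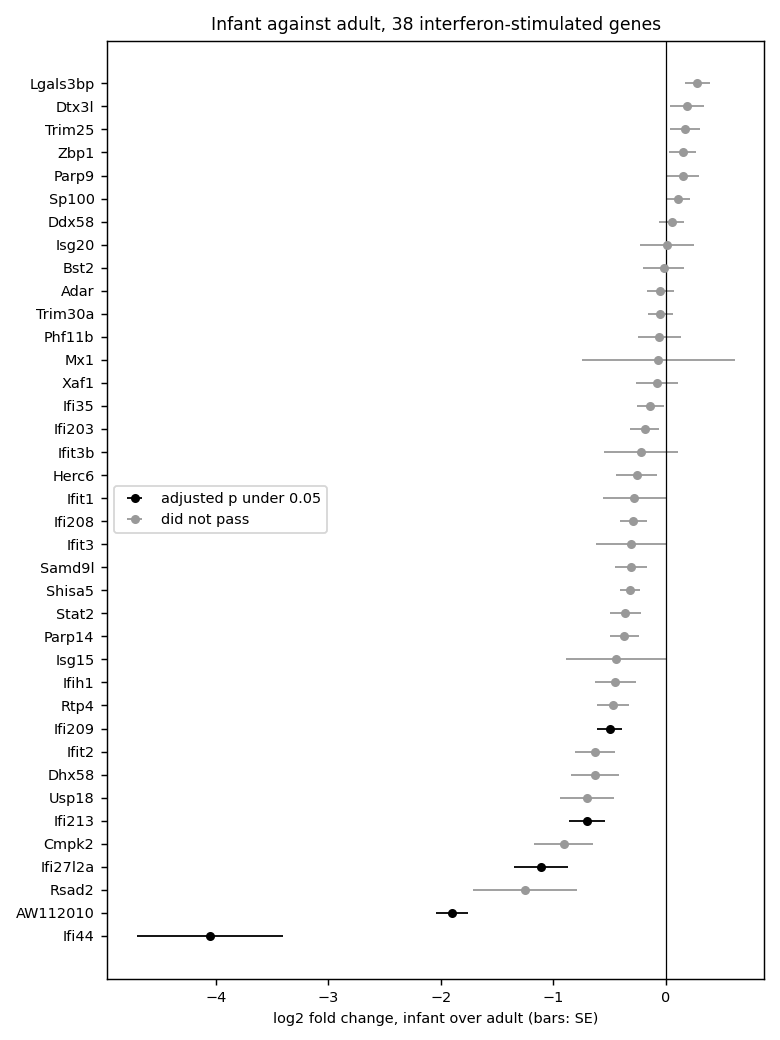
Log2 fold change (infant over adult, horizontal axis) of the 38 genes in the edgeR fit, with bars of 1 SE. Black points passed an adjusted p under 0.05, grey points did not; Ifi44 at −4.05 and AW112010 at −1.90 lie farthest to the left, and Lgals3bp at 0.28 farthest to the right.

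AW112010 showed the firmest difference of the set. It lies on chromosome 19 (11047612 to 11055808, minus strand, mm10) and is annotated as a long intergenic non-coding RNA. It had 43.3, 38.5 and 34.8 CPM in the infant libraries, against 135, 155 and 146 CPM in the adult libraries. The groups were far apart, and values within each group were close. The level in infant cells was 26.7% of that in adult cells (log2 fold change −1.90 ± 0.14, SE, edgeR adjusted p = 2.49e-06). It stayed past the threshold in all 17 alternative fits, with log2 fold changes of −1.98 to −1.78. None of its 25-base sequences occurs in an annotated transcript of another gene.

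Ifi44, an interferon-induced cytoplasmic protein gene on chromosome 3 (151730922 to 151749960, minus strand), was near the limit of detection in infant cells. Its raw counts were 5, 0 and 3 in infant libraries, against 52, 37 and 39 in adult libraries. Scaled to library size these were 1.05, 0 and 0.725 CPM in infant and 12.6, 10.5 and 8.33 CPM in adult libraries. Every adult library held the transcript, and the highest infant library had 1.05 CPM. The fitted log2 fold change was −4.05 ± 0.65 (edgeR adjusted p = 0.00283), a size that rests on 8 infant counts in all. With 6129 bases of exon, the background density of adult replicate 2 corresponds to 11.4 of its 37 counts. Without that library the log2 fold change was −4.04 (adjusted p = 0.00502).

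Ifi27l2a, which encodes a small hydrophobic protein of the ISG12 family, lies on chromosome 12 (103442167 to 103443680, minus strand) and was among the most abundant of the set per exon length. It had 132, 228 and 133 CPM in infant libraries, against 287, 513 and 268 CPM in adult libraries. Infant replicate 2 and adult replicate 2 were each the highest of their group, and the groups did not overlap. Infant cells held 46.2% of the adult level (log2 fold change −1.11 ± 0.24, edgeR adjusted p = 0.0180). The call was lost without infant replicate 1 (log2 fold change −0.97, adjusted p = 0.120) or 3 (−0.98, adjusted p = 0.118) and in DESeq2 (−1.11, adjusted p = 0.0794). Without both adult replicate 2 and infant replicate 3, a setting chosen after seeing the data, the change was −0.63 (adjusted p = 0.101).

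**Figure D2:**
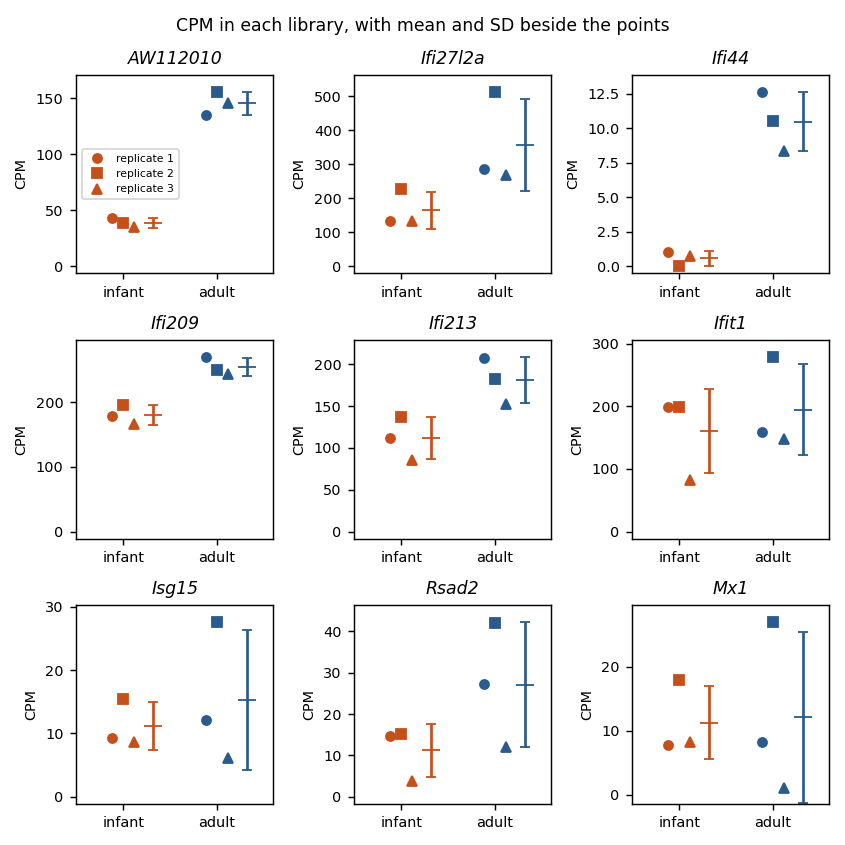
CPM in each library (vertical axis) for the 5 genes that passed the test and for Ifit1, Isg15, Rsad2 and Mx1, with infant libraries on the left of each panel; shapes mark the replicate number, and the bar beside the points is the mean ± SD of 3 libraries. The groups are separate for AW112010, Ifi27l2a, Ifi44, Ifi209 and Ifi213 and overlap for the other 4 genes, where adult replicate 2 is the highest library.

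The p200 family, nuclear proteins that bind DNA, is encoded by a gene cluster on chromosome 1. In infant cells 2 of its 4 genes in the set were lower (50%, against 2.11% of all tested genes) and 0 higher. Ifi209 (173630917 to 173647928, plus strand) had 178, 196 and 166 CPM in infant libraries, against 269.8, 251 and 243 CPM in adult libraries. Ifi213 (173566283 to 173599274, minus strand) had 112, 136 and 85.98 CPM in infant libraries, against 208, 182 and 153 CPM in adult libraries. At both genes all infant values lay below all adult values, by a small margin for Ifi213. Ifi209 fell to 70.7% of the adult level (log2 fold change −0.50 ± 0.11, edgeR adjusted p = 0.0204) and Ifi213 to 61.6% (−0.70 ± 0.16, adjusted p = 0.0277). The call for Ifi209 was lost with no filter (log2 fold change −0.46, adjusted p = 0.150) and without any 1 library other than adult replicate 2, where the change was −0.57 to −0.45 (adjusted p up to 0.126). That for Ifi213 was lost without infant replicate 1 or 3 or adult replicate 1, where the change was −0.70 to −0.54 (adjusted p up to 0.160).

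The other p200 genes did not pass. Ifi208 had 197, 200.3 and 159.9 CPM in infant and 233, 234 and 213 CPM in adult libraries, again with no overlap (log2 fold change −0.29 ± 0.12, edgeR adjusted p = 0.217). Ifi203 averaged 172 ± 23.1 CPM in infant and 195 ± 22.1 CPM in adult libraries (SD, n = 3 each), and its values overlapped. These genes are close copies of one another. Of the 25-base sequences of Ifi209 transcripts 52.9% also occur in Ifi214, and of those of Ifi213 28.0% occur in Ifi208. The handling of reads with several matches was not known here, so the levels of single p200 genes are uncertain. Sums over pairs of closest copies are therefore given as well. Ifi208 and Ifi213 together had 309, 337 and 246 CPM in infant and 440.5, 417 and 366 CPM in adult libraries. Ifi209 and Ifi214 together had 210.0, 233 and 179 CPM in infant and 351, 346 and 309 CPM in adult libraries. Ifi214, which is not one of the 38 genes, was lower in infant cells as well (−1.54 ± 0.27, adjusted p = 0.00539).

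A promoter window of Ifi213, Ifi208 and Ifi203 held the core of an interferon-stimulated response element, and that of Ifi209 did not. The matches are shown here because these close copies carry the same letters. RefSeq promoter windows (GRCm38.p6, 250 bases before to 50 bases after a transcript start) were searched on both strands for GAAA, any 2 bases and GAAA again, with overlapping matches counted. Capitals mark the match, and each sequence runs along the gene's own strand. The stretches printed lie at chr1:173599321-173599360 for Ifi213 (minus strand), chr1:173673592-173673631 for Ifi208 (plus strand) and chr1:173942503-173942542 for Ifi203 (minus strand).
Ifi213: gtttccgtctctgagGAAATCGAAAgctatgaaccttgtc
Ifi208: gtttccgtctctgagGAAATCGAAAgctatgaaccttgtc
Ifi203: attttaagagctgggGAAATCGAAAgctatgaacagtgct
The Ifi213 and Ifi208 stretches are the same letter for letter over 40 bases, and the matched letters are also the same in Ifi203. Ifi203 has another window without a match, and no match says only that these letters are not in a window.

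Among the IFIT genes, whose proteins bind viral RNA and which form a cluster on chromosome 19, 0 of 4 passed the test. Ifit1, the sensor of RNA with an incomplete cap, had 199, 199 and 83.1 CPM in infant libraries, against 158, 278 and 148 CPM in adult libraries. Infant replicate 3 was low and adult replicate 2 high, and the groups overlapped (log2 fold change −0.28 ± 0.28, edgeR adjusted p = 0.676). Ifit2 was the exception to the overlap, with 54.4, 64.6 and 44.4 CPM in infant and 90.4, 96.6 and 66.4 CPM in adult libraries. Its log2 fold change of −0.63 ± 0.18 missed the threshold (edgeR adjusted p = 0.0672), and it passed in 4 of 17 alternative fits, with DESeq2 among them (adjusted p = 0.0316). Ifit3 had 57.2, 67.5 and 32.1 CPM in infant and 58.7, 100.01 and 37.2 CPM in adult libraries. Ifit3b ranged from 10.4 to 23.0 CPM in infant and from 14.5 to 29.8 CPM in adult libraries. Ifit3 and Ifit3b rank the libraries alike within each group, and 66.1% of the 25-base sequences of Ifit3 also occur in Ifit3b, so their counts cannot be told apart with confidence. Their sum was 70.0 ± 24.7 CPM in infant and 86.2 ± 39.9 CPM in adult libraries (SD, n = 3 each).

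Ifit1, Ifit3 and Ifit3b each held a pair of matches to the same element core, shown because the infant and adult values of these 3 genes overlapped. The stretches lie at chr19:34640770-34640828, chr19:34583358-34583431 and chr19:34607754-34607827, all on the plus strand, where the capitals mark the core's reverse complement (TTTC, any 2 bases and TTTC).
Ifit1: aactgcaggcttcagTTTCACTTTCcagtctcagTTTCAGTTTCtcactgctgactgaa
Ifit3: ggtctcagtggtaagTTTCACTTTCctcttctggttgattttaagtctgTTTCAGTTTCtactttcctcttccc
Ifit3b: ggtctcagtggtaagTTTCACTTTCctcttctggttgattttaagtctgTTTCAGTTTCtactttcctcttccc
Ifit3 and Ifit3b were the same over all 74 bases shown, and the matched letters of Ifit1 were the same as theirs at both sites.

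ISG15 is a ubiquitin-like protein that is attached to other proteins, with Herc6 as its main ligase in the mouse and Usp18 as the protease that removes it and dampens the receptor. None of these genes passed the test. Isg15 had 9.21, 15.5 and 8.69 CPM in infant libraries, against 12.1, 27.6 and 6.20 CPM in adult libraries. The adult libraries enclosed all infant values, and the spread between adults exceeded any difference with age (log2 fold change −0.44 ± 0.45, edgeR adjusted p = 0.676). Herc6 had 41.7, 36.5 and 32.8 CPM in infant and 41.7, 51.4 and 39.95 CPM in adult libraries. Trim25, a ubiquitin ligase of the RIG-I pathway, had 117, 109 and 97.1 CPM in infant and 98.9, 102 and 87.0 CPM in adult libraries, overlapping (0.17 ± 0.13, adjusted p = 0.567). Usp18 had 78.7, 75.7 and 38.4 CPM in infant and 121, 122 and 72.6 CPM in adult libraries. Infant replicate 3 and adult replicate 3 were the low libraries, and the adult minimum fell within the infant range (−0.70 ± 0.24, adjusted p = 0.142), and it passed in 2 of 17 alternative fits. Of the other enzymes of this pathway, Uba7, the activating enzyme, was at 336 ± 12.8 CPM in infant and 352 ± 16.2 CPM in adult cells. The conjugating enzyme gene Ube2l6 was too low to test, with 2, 0 and 3 counts in infant and 3, 29 and 20 counts in adult libraries.

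The Isg15 promoter held 3 overlapping matches on its own strand, at chr4:156200860-156200911 (minus strand), and is shown as the densest run of the element in the set.
Isg15: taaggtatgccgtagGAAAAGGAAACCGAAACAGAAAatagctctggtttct
Promoter windows were matched for 30 of the 38 genes. The element core was in a window of 15 of the 30 (50%), against 3.99% of 27025 genes with windows. At least 2 matches in a window were found for 5 of 30 genes (16.7%). Of all 32851 windows 0.225% held as many, a share of windows and not of genes, so these shares cannot be compared directly. Of the 15 genes with a match 1 was lower in infant cells (Ifi213) and the median log2 fold change was −0.29. Of the 15 without a match 3 were lower (AW112010, Ifi209 and Ifi44) and the median was −0.14. Of these, Ifi44 passed the filter only through the adult libraries. Over all tested genes 2.11% were lower. Whether a match goes with the change was not tested. Ifi27l2a was among the 8 genes without a window in the table. The core TTCNNNGAA of the gamma-activated sequence, which reads alike on both strands, was in a window of 6 of 30 genes (20%), against 9.55% of all genes.

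The sensors of foreign RNA lie upstream of interferon production and are themselves induced by it, and 0 of 5 genes of sensing and RNA editing passed the test. Ddx58, which encodes RIG-I, had 217, 238 and 220.0 CPM in infant libraries, against 235, 197 and 219 CPM in adult libraries. The groups overlapped (log2 fold change 0.05 ± 0.11, edgeR adjusted p = 0.875). Adar, the editing enzyme that marks own double-stranded RNA, had 197, 187 and 153 CPM in infant libraries, against 175, 198 and 185 CPM in adult libraries, overlapping. Zbp1, a sensor of left-handed nucleic acid, averaged 153 ± 7.67 CPM in infant and 139 ± 13.8 CPM in adult libraries (SD, n = 3 each). Ifih1, which encodes MDA5, had 51.1, 56.1 and 35.7 CPM in infant and 72.5, 67.0 and 56.4 CPM in adult libraries. Its groups were separate by a narrow margin, and its log2 fold change of −0.45 ± 0.18 did not pass (edgeR adjusted p = 0.214). Dhx58, which encodes LGP2, had 31.8, 48.6 and 38.6 CPM in infant and 57.9, 78.4 and 48.1 CPM in adult libraries, overlapping by a small margin (−0.63 ± 0.21, adjusted p = 0.123).

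Of the 9 antiviral effectors 0 passed. Trim30a, a regulator of Toll-like receptor signalling in the mouse, had 167, 167 and 147 CPM in infant libraries, against 156, 168 and 172 CPM in adult libraries. Samd9l, a restriction factor that limits growth and translation, had 126, 134 and 114 CPM in infant and 180.4, 128 and 156 CPM in adult libraries. In neither gene were the groups separate. Rtp4, which restricts flaviviruses, had 95.5, 108 and 83.6 CPM in infant libraries, against 132, 152 and 113 CPM in adult libraries, without overlap (log2 fold change −0.47 ± 0.14, edgeR adjusted p = 0.0913). Cmpk2, a mitochondrial nucleotide kinase, had 24.1, 20.8 and 22.2 CPM in infant libraries, against 36.8, 61.7 and 28.6 CPM in adult libraries. Infant values were tight and adult values spread out, and the change of −0.91 ± 0.26 missed the threshold (adjusted p = 0.0664). Cmpk2 passed in 3 of 17 alternative fits: with no filter (adjusted p = 0.00675), in DESeq2 (0.0268) and without adult replicate 3 in edgeR (0.0337). Its neighbour on chromosome 12 is Rsad2, which encodes viperin, an enzyme that makes a chain-terminating nucleotide. Rsad2 had 14.7, 15.2 and 3.86 CPM in infant and 27.4, 42.0 and 11.96 CPM in adult libraries. Its log2 fold change of −1.25 ± 0.46 was larger in size than those of Ifi27l2a, Ifi209 and Ifi213, but its groups overlapped and it did not pass (adjusted p = 0.167). Rsad2 passed in 2 of 17 alternative fits, both in edgeR, with no filter (adjusted p = 0.00081) and with the replicate block (0.0299). It did not pass in DESeq2 (adjusted p = 0.422), limma-voom (0.233) or limma-voom with quality weights (0.204).

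The remaining effectors were closer to equal. Bst2, the tetherin that holds budding virus at the cell surface, had 59.0, 88.5 and 59.4 CPM in infant and 66.7, 83.8 and 60.2 CPM in adult libraries (log2 fold change −0.02 ± 0.18, edgeR adjusted p = 0.968). The RNA exonuclease gene Isg20 averaged 37.7 ± 5.95 CPM in infant and 37.8 ± 12.9 CPM in adult libraries, and Xaf1, an antagonist of the apoptosis inhibitor XIAP, 66.8 ± 16.2 CPM in infant and 70.9 ± 14.0 CPM in adult libraries (SD, n = 3 each). Mx1, a GTPase against influenza virus whose gene is defective in C57BL/6 mice, had 7.75, 17.9 and 8.21 CPM in infant and 8.24, 27.0 and 1.07 CPM in adult libraries. It had the widest spread of the 38 genes: the counts of its adult libraries were 34, 95 and 5. With an SE of 0.68 on a log2 fold change of −0.07, no difference with age could be detected for Mx1 at this spread (adjusted p = 0.975).

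Of the 3 enzymes of ADP-ribosylation 0 passed. Parp9 and Dtx3l form a complex from neighbouring genes on chromosome 16, and both had log2 fold changes above 0, at 0.15 ± 0.14 and 0.19 ± 0.15 (edgeR adjusted p = 0.627 and 0.599). Parp9 had 176, 215 and 162 CPM in infant and 169.9, 140.1 and 186 CPM in adult libraries. Dtx3l had 170.2, 175 and 135 CPM in infant and 167, 109 and 146 CPM in adult libraries, and adult replicate 2 was the lowest library for both. Parp14, a mono-ADP-ribosyltransferase of the same chromosome, had 126, 118 and 107 CPM in infant libraries, against 169.5, 149 and 135 CPM in adult libraries. Its groups were separate, and its change of −0.37 ± 0.13 did not pass (edgeR adjusted p = 0.138). The exons of Parp9 and Dtx3l overlap over 9.40% of Parp9, and without strand in the protocol reads there cannot be assigned.

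In the remaining group, Shisa5, an endoplasmic reticulum protein gene also known as scotin, had 1606, 1544 and 1678 CPM in infant libraries, against 2031, 1935 and 2078 CPM in adult libraries. The groups were separate, and the spread within them was small. Its log2 fold change of −0.32 ± 0.09 narrowly missed the threshold (edgeR adjusted p = 0.0550), and it passed in 9 of 17 alternative fits. Sp100, a protein of nuclear bodies, had 865, 831 and 806 CPM in infant and 802, 699 and 813 CPM in adult libraries (0.11 ± 0.10, adjusted p = 0.614). Lgals3bp, a secreted glycoprotein that binds galectin-3, was the gene whose infant values all lay above the adult values, at 166, 182 and 155 CPM in infant and 143.5, 134 and 137 CPM in adult libraries (0.28 ± 0.11, adjusted p = 0.222). Ifi35 averaged 139 ± 7.84 CPM in infant and 153 ± 12.3 CPM in adult libraries. Phf11b averaged 40.6 ± 5.02 CPM in infant and 42.3 ± 8.28 CPM in adult libraries (SD, n = 3 each). Of the 25-base sequences of Phf11b transcripts 50.9% occur in Phf11a as well.

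Stat2, the member of the set that carries the interferon signal itself, had 94.0, 76.4 and 78.0 CPM in infant libraries, against 118, 101 and 98.7 CPM in adult libraries. The groups were separate, and the change of −0.36 ± 0.14 did not pass (edgeR adjusted p = 0.190). Its partner Irf9 had 230.1, 249.8 and 235 CPM in infant and 317, 302 and 308 CPM in adult libraries, also separate, and narrowly missed the threshold (−0.38 ± 0.10, adjusted p = 0.0539). The receptor chain Ifnar1 was at 290.2 ± 36.5 CPM in infant and 240.2 ± 18.7 CPM in adult cells, and Ifnar2 at 92.6 ± 10.3 CPM in infant and 92.5 ± 14.3 CPM in adult cells (SD, n = 3 each). Of the kinases, Tyk2 was at 119 ± 4.37 CPM in infant and 98.0 ± 10.9 CPM in adult cells. All its infant values (114 to 122 CPM) lay above all its adult values (88.6 to 110 CPM, log2 fold change 0.28 ± 0.13). Jak1 was at 1046 ± 10.4 CPM in infant and 1117 ± 68.1 CPM in adult cells. Neither receptor chain nor kinase passed the test (adjusted p = 0.251 to 0.998).

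Of 42 pathway genes outside the set, 22 were tested. In infant cells 1 of the 22 was lower (4.55%, against 2.11% of all tested genes) and 0 were higher. That gene was Socs3, a feedback inhibitor of cytokine receptors, with 33.1, 42.3 and 25.8 CPM in infant libraries, against 118, 91.5 and 136 CPM in adult libraries (log2 fold change −1.77 ± 0.19, edgeR adjusted p = 1.35e-04). Its groups were far apart. Irf7, an interferon-inducible transcription factor, had 135, 170.3 and 114 CPM in infant and 160.0, 209 and 115 CPM in adult libraries, overlapping throughout. Interferon genes had few counts: over 17 genes of alpha, beta, epsilon, kappa and zeta type the infant libraries held 1, 0 and 1 counts, and the adult libraries 5, 29 and 0. The 29 counts were those of adult replicate 2, the library with counts over many otherwise silent genes. Among the neighbouring families of interferon-induced genes, 3 of 7 tested oligoadenylate synthetases, 1 of 10 guanylate-binding proteins and 1 of 8 immunity-related GTPases were lower in infant cells. These shares of 42.9%, 10% and 12.5% stand against 2.11% of all tested genes, and each rests on few genes. Differences between these families were not tested.

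**Figure D3:**
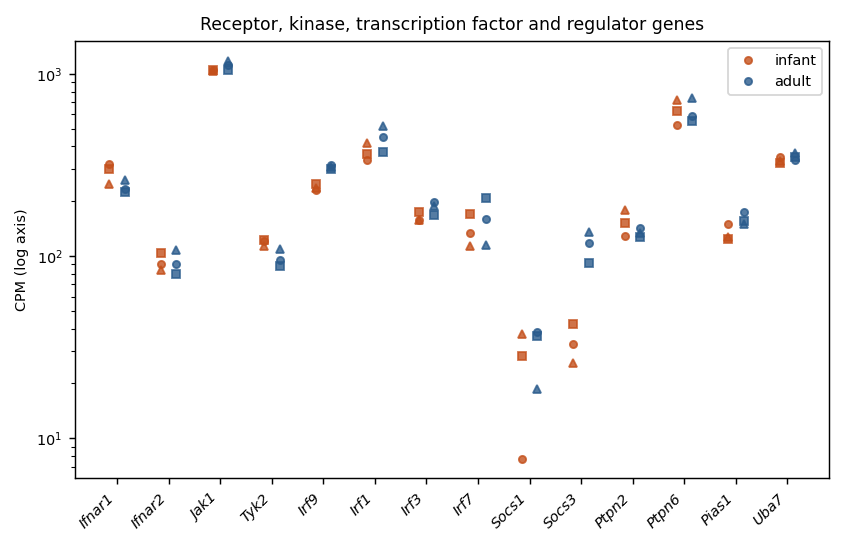
CPM (log axis) of genes of the interferon pathway in the 3 infant and 3 adult libraries, with a circle, square or triangle for replicate 1, 2 or 3. Socs3 is the gene of this plot that passed the test, with infant values of 25.8 to 42.3 CPM below adult values of 91.5 to 136 CPM; the receptor and kinase genes did not pass.

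Levels can be compared between genes only per length of exon, in CPM per kb. In adult cells Ifi27l2a (769 ± 293) and Shisa5 (611 ± 22.1) were highest and did not differ beyond their spread, and AW112010 followed at 181 ± 12.7 (SD, n = 3 each). Sp100 came next (102 ± 8.36). Then came Ifi35 (88.7 ± 7.10), Bst2 (77.8 ± 13.5), Ifit1 (73.4 ± 27.3) and Ifi209 (71.8 ± 3.86), and among these 4 no gene differed from the next by more than the larger SD of the pair. At the low end stood Rsad2 (6.26 ± 3.47), Herc6 (4.77 ± 0.665), Mx1 (3.20 ± 3.54) and Ifi44 (1.71 ± 0.349). In infant cells the order began with Shisa5 (488 ± 20.5), Ifi27l2a (355 ± 119) and Sp100 (110.4 ± 3.93). AW112010, the third gene in adult cells, was ninth in infant cells at 48.3 ± 5.34 CPM per kb.

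**Figure D4:**
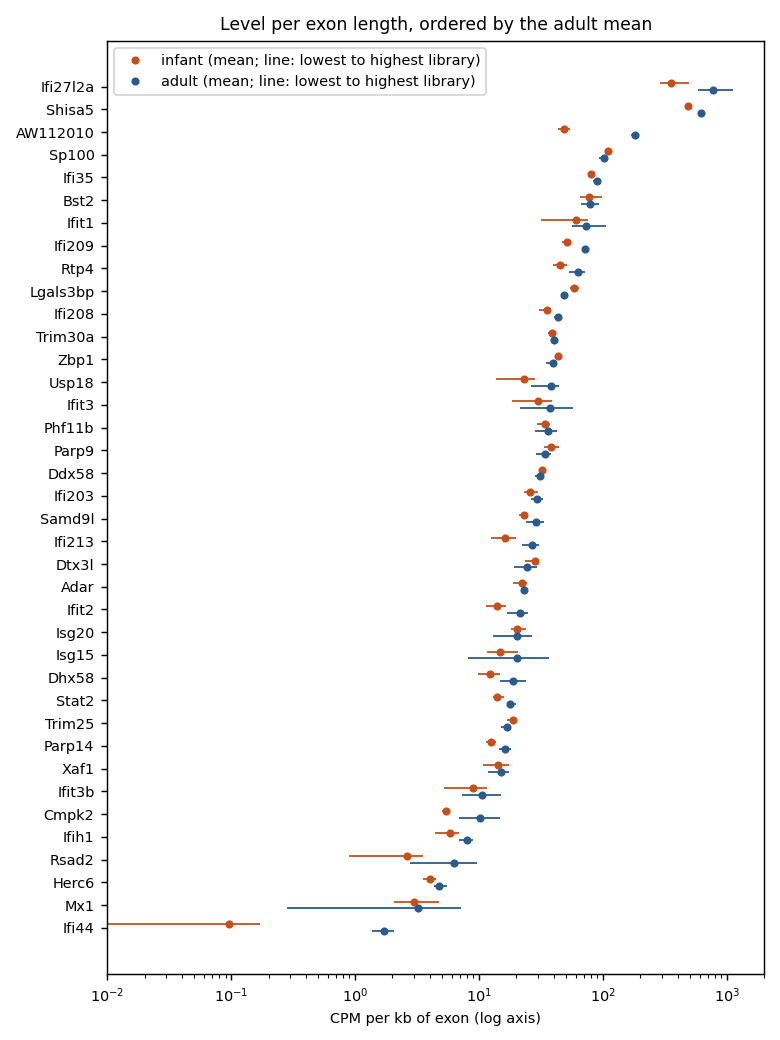
Level per exon length (CPM per kb of exon, log axis) of the 38 genes in order of the adult mean; points are means of 3 libraries and lines run from the lowest to the highest library (the line of Ifi44 in infant cells runs off the axis, since 1 library was at 0). AW112010 has its infant point at 48.3 and its adult point at 181.

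Many of the 38 genes ranked the libraries within a group alike. Within the adult group, adult replicate 3 was the lowest library at 27 of 38 genes (71.1%), against 32.1% of all tested genes, and adult replicate 2 the highest at 22 (57.9%), against 35.3%. Within the infant group, infant replicate 3 was the lowest at 28 of 38 (73.7%), against 35.2% of all tested genes, and infant replicate 2 the highest at 24 (63.2%), against 31.2%. Relative to the adult mean, the median log2 level over the 38 genes was −0.22, −0.04 and −0.46 in infant replicates 1, 2 and 3 and 0.06, 0.09 and −0.18 in adult replicates 1, 2 and 3. Infant replicate 2 thus lay above adult replicate 3, so the ages were not separate in this median. Over all tested genes the same medians lay within 0.02 of 0.

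Mx1, Isg15, Rsad2 and Ifit3 spread widely between mice of the same age. Within the adult group the highest library exceeded the lowest by 25.3-fold for Mx1, 4.45-fold for Isg15, 3.51-fold for Rsad2 and 2.69-fold for Ifit3. For Shisa5 and Lgals3bp that ratio was 1.07. Within the infant group it reached 3.94 for Rsad2, 2.40 for Ifit1 and 2.31 for Mx1. The biological coefficient of variation in the edgeR fit was above the trend for genes of like abundance at 20 of 38 genes (52.6%), against 33.3% of all tested genes, with the highest values for Mx1 (0.565), Rsad2 (0.374) and Isg15 (0.364). The background density of adult replicate 2 is a mean over 10990 genes and does not bound the background at a single gene. This mean corresponds to at most 9.51% of that library's count at any of the 38 genes other than Ifi44. For Ifit1, Isg15 and Rsad2, which were highest in that library, it corresponds to 0.502%, 1.44% and 5.43% of the count.

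**Figure D5:**
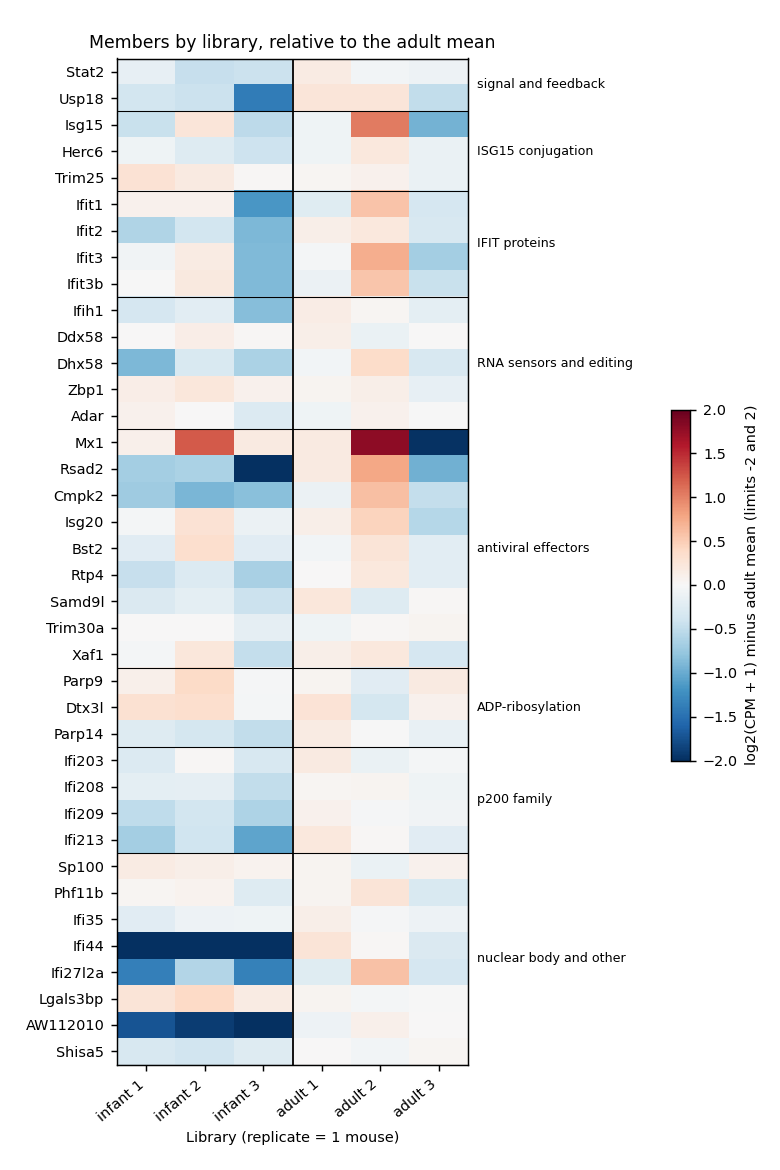
Level of each of the 38 genes (rows, grouped by role) in each library (columns), as log2(CPM + 1) minus the adult mean, with colours limited to −2 and 2. Ifi44 and AW112010 are low in all 3 infant libraries, whereas Ifit1, Isg15, Rsad2 and Mx1 are low in infant replicate 3 or adult replicate 3 and high in adult replicate 2.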

How the data were processed

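Polyadenylated RNA was copied from an oligo(dT) primer, amplified by PCR, cut with a transposase and sequenced in paired reads of 25 bases, per the labels' protocols. The protocol marks no strand and uses no molecular identifiers. The submitters' processing notes name STAR 2.5.4, featureCounts and the build mm10. The deposited file holds raw counts per gene symbol, which the authors did not normalize. The handling of reads with several matches was not known here. A floor of 3 counts corresponds to 0.614 to 0.877 CPM, for counting error only. Each replicate was 1 mouse, per the series' design text, and all pairs of replicates differed by more than sampling noise (chi-square over degrees of freedom, 5.44 to 13.4).

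Genes were kept by filterByExpr (minimum count 10, minimum total 15) and tested over all 6 libraries with edgeR 4.0.16 in R 4.3.3 (TMM factors of 0.963 to 1.07, quasi-likelihood F test, Benjamini-Hochberg adjustment over 11681 genes, threshold 0.05). Log2 fold changes set infant over adult, with SEs derived from the F statistic. CPM rest on tested-gene totals scaled by TMM, and CPM per kb the union of exons in GENCODE M21. A sequence of 25 bases was called shared if it occurs, on either strand, in a transcript of another gene there. The fit was tested on simulated counts. The 38 genes and all lists were chosen with earlier results of these data known, and no p was adjusted over a list alone. Values in all libraries are given for genes that passed, for genes whose groups did not overlap and for the 2 of each role group with the highest CPM, and also for others where a comparison calls for them. Alternatives were DESeq2 1.42.0, limma 3.58.1 (voom with and without quality weights), other scalings, filters and thresholds, thinning to 3421253 counts, the replicate number as a block, and leaving out libraries. Some genes of the pathway and marker lists are not reported here.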

Additional observations from a re-analysis of the deposited data

How the results depend on the processing

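AW112010 passed in all 17 alternative fits, as did Ifi44, which passes the filter only through adult libraries. The count of 5 genes was 5 to 7 under other scalings, filters, thinning and tests, 2 at an adjusted p under 0.01, 3 at a 2-fold minimum and 3 without both adult replicate 2 and infant replicate 3 (chosen after seeing the data). Leaving out 1 library gave 2 to 6 of the 38 genes, with Shisa5 joining the 5 without adult replicate 2, and Ifit2 and Cmpk2 called in place of Ifi209 without adult replicate 3. It gave 139 to 488 of all genes, against 425, which was 162 at an adjusted p under 0.01 and 184 at a 2-fold minimum. No gene of the set was higher in infant cells under any of these. The median of −0.28 ran from −0.37 to −0.15 without 1 library and was −0.11 without both. No scaling moved the median of all genes by over 0.1; testing genes without a filter put it at −0.84, with the median of the set at −0.23. With the replicate block 9 genes were lower and 326 of all genes were called. Over all tested genes same-numbered libraries did not deviate together (correlations of −0.0919 to −0.0108), and no library correlated best with its own number. Among the 38 genes, however, replicate 3 was the lowest library at 28 genes in the infant and 27 in the adult group. Replicate 2 was the highest at 24 and 22. Whether the replicate number marks a shared batch was not known here. Some genes that did not pass changed sign: Isg20 with library totals (−0.0017) and thinning (−0.035), Bst2 with no filter (0.023) and voom quality weights (0.048), and Mx1 with no filter (0.013), the replicate block (0.39), voom (0.89) and voom quality weights (1.03). Leaving out 1 library or both of those named, log2 fold changes ran from −0.83 to 0.43 for Isg15, −0.46 to 0.38 for Ifit1, −0.60 to 0.38 for Ifit3, −0.45 to 0.38 for Ifit3b, −0.013 to 0.11 for Ddx58, −0.12 to 0.092 for Adar, −0.63 to 1.48 for Mx1, −0.24 to 0.33 for Isg20, −0.24 to 0.22 for Bst2, −0.088 to 0.021 for Trim30a, −0.26 to 0.20 for Xaf1 and −0.20 to 0.18 for Phf11b. The cause was not tested.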
